A study of Mus musculus with 6 samples.

Results

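Promoter-flanking regions were open chromatin regions that the deposited table assigned to a protein-coding gene and whose centre lay more than 1 kb from that gene's start. They were selected by biotype and distance only, and not by their values. Of the 58172 regions in the table, 4425 met this definition, or 7.61%. The most distant centre lay 5945 bp from the start, and the median distance was 2662 bp. By gene strand, start and end, 1732 regions lay upstream of the start and 2693 downstream. Of the downstream regions, 2518 had their centre inside the gene and 175 past its end. The regions belonged to 3776 genes.

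Open chromatin was profiled in endothelial cells isolated from mouse lung by ATAC-seq, an assay that cuts accessible DNA with the Tn5 transposase and sequences the ends. Per the labels, 3 libraries were Cre-positive and CSE-KO, a knockout of cystathionine gamma-lyase, and 3 were Cre-negative and WT. The enzyme is encoded by Cth and makes cysteine and hydrogen sulfide. Cre status and loss of the enzyme cannot be told apart here, because all CSE-KO libraries were Cre-positive and all WT libraries Cre-negative. Sources used here do not give the driver of Cre, the age and sex of the mice, any treatment or whether each library came from its own animal. The p-values therefore measure the spread between these samples, which may be technical. In bulk samples, fewer cells with an open site and less opening per cell cannot be told apart.

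A promoter is the stretch around a gene's start where transcription is assembled. The kilobases on either side hold nearby enhancers, alternative starts and, for short genes, the end of the transcription unit, where polymerases leave the template. In Drosophila, heat shock genes are the classic case in which chromatin opens along the whole gene when transcription is high.

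The values are whole numbers that sum to between 5437296 and 5547417 in CSE-KO libraries and to between 5242490 and 5368491 in WT libraries. The region at the Cth start held values of 11, 6 and 2 in CSE-KO, against 195, 157 and 167 in WT, so the targeted locus matched the labels. Of 20 endothelial markers, 17 had a promoter region, with a mean value per marker of 116 to 128 in CSE-KO libraries and 110 to 114 in WT libraries. Pecam1, Icam2 and Robo4 had none. Promoter regions were present for 7 of 20 mural and fibroblast markers, 6 of 22 epithelial and mesothelial markers and 3 of 24 leukocyte markers. Their mean values per marker were 24.1 to 25.4, 28.5 to 31.8 and 17.7 to 20.5 in CSE-KO, against 20.4 to 22.8, 20.1 to 25.3 and 19.4 to 20.6 in WT. The mural and fibroblast markers with a promoter region were Pdgfrb, Acta2, Myh11, Kcnj8, Abcc9, Col1a1 and Pdgfrl. The epithelial and mesothelial ones were Epcam, Hopx, Pdpn, Krt18, Foxj1 and Abca3, and the leukocyte ones Spi1, Cd68 and Cd14. Ptprc, Cdh1, Sftpc and Pdgfra were among the markers without one. The endothelial, mural and epithelial levels were thus higher in every CSE-KO library than in any WT library, and their part in the results below was not tested.

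Some flanking regions contained an annotated start of their own, and 466 members (10.5%) held the RefSeq start of at least one transcript or neighbouring gene. The 300-base start windows below, 250 bases before to 50 after a start on the gene's strand, are taken from RefSeq on GRCm38.p6 (mm10). They belong to 4 flanking regions that were called in the accessibility test, Ndrg4 and Ube2l3 higher and Ttll3 and Bcl2l11 lower in CSE-KO, and were chosen after the values were seen, as the largest changes among well covered regions with a start of their own gene. Capitals mark matches on either strand to the GC box (letters GGGCGG), the CCAAT box and the TATA box (letters TATAAA). The Ndrg4 window is chr8:95678022-95678321 on the plus strand, the Ube2l3 window chr16:17201443-17201742 on the minus strand, the Ttll3 window chr6:113392213-113392512 on the plus strand and the Bcl2l11 window chr2:128127325-128127624 on the plus strand. The Ndrg4 and Bcl2l11 windows lie wholly in the regions, while 133 bases of the Ube2l3 window and 209 bases of the Ttll3 window do.
Ndrg4: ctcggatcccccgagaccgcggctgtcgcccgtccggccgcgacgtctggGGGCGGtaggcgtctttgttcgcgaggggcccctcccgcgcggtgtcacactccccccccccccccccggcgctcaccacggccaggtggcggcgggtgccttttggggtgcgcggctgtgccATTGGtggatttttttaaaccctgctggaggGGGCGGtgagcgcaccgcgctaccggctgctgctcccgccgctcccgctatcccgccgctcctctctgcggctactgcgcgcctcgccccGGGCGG
Ube2l3: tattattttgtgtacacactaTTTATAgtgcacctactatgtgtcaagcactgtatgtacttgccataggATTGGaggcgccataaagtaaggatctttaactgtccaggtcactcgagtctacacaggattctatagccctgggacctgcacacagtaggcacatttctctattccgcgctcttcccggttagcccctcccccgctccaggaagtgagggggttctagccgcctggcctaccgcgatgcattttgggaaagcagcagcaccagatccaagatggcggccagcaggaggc
Ttll3: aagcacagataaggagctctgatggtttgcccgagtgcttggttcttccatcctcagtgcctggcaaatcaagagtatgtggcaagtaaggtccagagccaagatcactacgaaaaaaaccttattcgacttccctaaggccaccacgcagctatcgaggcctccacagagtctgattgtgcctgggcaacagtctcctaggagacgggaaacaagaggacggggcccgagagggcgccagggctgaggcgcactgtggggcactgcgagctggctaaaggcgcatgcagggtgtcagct
Bcl2l11: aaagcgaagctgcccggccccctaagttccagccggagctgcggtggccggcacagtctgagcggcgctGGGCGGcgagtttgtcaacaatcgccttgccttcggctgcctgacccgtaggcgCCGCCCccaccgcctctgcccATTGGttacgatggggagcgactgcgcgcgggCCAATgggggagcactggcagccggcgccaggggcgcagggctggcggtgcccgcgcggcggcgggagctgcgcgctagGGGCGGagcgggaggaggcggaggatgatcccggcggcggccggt

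The Ndrg4 and Bcl2l11 windows each held 3 GC boxes and 40 and 38 CpG dinucleotides. The Ube2l3 window held no GC box and 10 CpGs, and the Ttll3 window had none of the 3 motifs and 12 CpGs. Over the 560 start windows of flanking regions, 68.6% held GGGCGG on either strand, against 35.7% of all 32851 RefSeq promoter windows, and the median CpG number was 21 against 7. CCAAT was present in 33.6% against 37.4% and TATAAA in 7.32% against 13.6%. These are letter matches, with no claim of binding. The 560 windows were chosen for lying in open regions and the 32851 were not. Start windows in open promoter regions were not compared, so these shares cannot be called particular to flanking starts.

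The start windows of Hspa1b and Hspb1 are shown because the regions past the ends of these genes were, by limma on the flank minus the promoter, the 2 members with the smallest p for a rise relative to their own promoter. Capitals mark GAANNTTC, the core of a heat shock element, on either strand. The Hspa1b window is chr17:34959189-34959488 on the minus strand and the Hspb1 window chr5:135887669-135887968 on the plus strand.
Hspa1b: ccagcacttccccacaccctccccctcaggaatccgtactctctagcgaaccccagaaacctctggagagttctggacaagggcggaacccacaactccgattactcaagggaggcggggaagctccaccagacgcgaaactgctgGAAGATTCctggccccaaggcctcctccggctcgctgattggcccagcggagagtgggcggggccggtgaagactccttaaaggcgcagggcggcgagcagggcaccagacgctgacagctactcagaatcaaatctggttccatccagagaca
Hspb1: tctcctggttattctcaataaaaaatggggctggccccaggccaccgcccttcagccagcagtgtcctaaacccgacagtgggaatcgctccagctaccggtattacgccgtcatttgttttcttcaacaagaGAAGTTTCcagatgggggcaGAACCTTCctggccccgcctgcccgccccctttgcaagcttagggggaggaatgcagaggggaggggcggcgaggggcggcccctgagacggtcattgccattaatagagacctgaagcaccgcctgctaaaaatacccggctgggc

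The core occurred once in the Hspa1b window and at 2 places in the Hspb1 window. It was present in 7.86% of all promoter windows and in 4.82% of the windows inside flanking regions, a comparison with the same limit.

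Flanking regions changed in both directions in CSE-KO cells. Of the 4424 members with a mean value of at least 5, 328 were higher in CSE-KO (7.41%, against 7.7% of all 58129 regions tested) and 370 were lower (8.36%, against 9.6%), by limma on log2(value + 1) with a Benjamini-Hochberg adjusted p under 0.05. The share called in either direction was 15.8%, against 17.3% over all regions, and the values of the groups did not overlap in 38.2% of members, against 39.5%. Both shares were near the background. The CSE-KO columns skip 35 to 39 of the whole numbers up to 100 and the WT columns none, as happens when 1 read is worth more than 1 unit. CSE-KO values thus rest on fewer reads. Leaving out 1 WT library lowered the counts to 113, 127 and 118 higher and 122, 128 and 133 lower without replicates 1, 2 and 3, and with the CSE-KO libraries left out in turn they were 245 to 256 higher and 319 to 355 lower.

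Upstream and downstream sides differed in balance. Among upstream members 128 were higher (7.39%) and 180 lower (10.4%), with a median log2 change of -0.02. These shares were near the 7.7% and 9.6% over all regions. Among the 2692 downstream members tested, 200 were higher (7.43%) and 190 lower (7.06%), with a median of 0.03. Promoter regions within 1 kb of a protein-coding start had 563 higher (4.93%) and 221 lower (1.93%) of 11425, with a median of 0.12. Regions with no assigned gene had 3105 higher (8.55%) and 4264 lower (11.7%) of 36298, with a median of -0.07. Flanking regions therefore lay between both classes in median. Their median value was 57.8, against 164 at promoters and 39.5 at regions with no gene, and their median width 400 bp, against 805 and 386 bp.

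The balance on the downstream side shifted with distance. At 1 to 2 kb downstream, 88 members were higher and 43 lower of 1042, with a median log2 change of 0.10. From 2 to 3 kb the counts were 44 and 42 of 597, from 3 to 4 kb 33 and 55 of 493, from 4 to 5 kb 29 and 38 of 447, and from 5 to 6 kb 6 and 12 of 113, where the median was -0.12. Lower calls were thus fewer than higher calls next to the promoter and more numerous beyond 3 kb. Upstream, lower calls outnumbered higher ones in every 1-kb bin, with 42 higher and 49 lower of 507 in the nearest. Lower calls also outnumbered higher ones over all regions, at 5579 and 4478 of 58129. In the first 250 bp outside the 1 kb limit, members had 44 higher and 19 lower calls of 484, and in the last 250 bp inside it, promoter regions had 47 and 11 of 612. These shares are descriptions without a test of the trend.

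**Figure D1:**
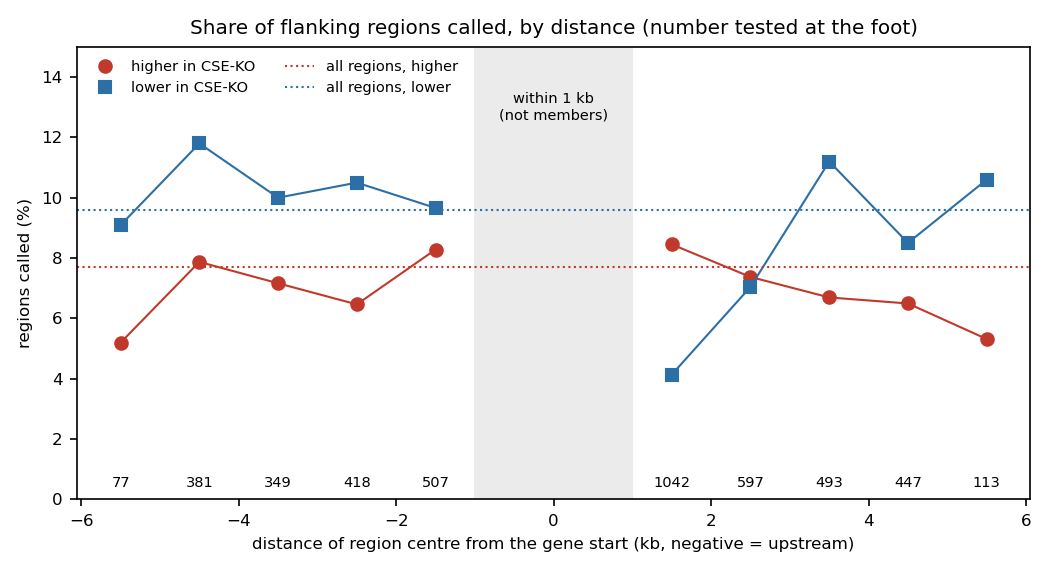
Percentage of flanking regions called higher (red circles) or lower (blue squares) in CSE-KO, by distance of the region centre from the gene start in 1-kb bins (x axis, kb, negative upstream), with the same shares over all regions tested as dotted lines. From 1 to 2 kb downstream 8.45% were higher and 4.13% lower, and from 3 to 4 kb 6.69% were higher and 11.2% lower.

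Members that contained a RefSeq start had 30 higher (6.44%) and 6 lower (1.29%) calls of 466 and a median log2 change of 0.12. Members without one had 298 (7.53%) and 364 (9.2%) of 3958 and a median of -0.01. Over all regions the shares were 7.7% and 9.6%. The members with a start were also stronger, with a median value of 151 against 52.8, and wider, at 739 against 374 bp. The distance pattern was present among members without a start, where 75 were higher and 41 lower of 848 at 1 to 2 kb downstream and 31 and 52 of 433 at 3 to 4 kb. By width, the narrowest members (up to 281 bp) had 109 higher (9.75%) and 76 lower (6.8%) calls of 1118. The widest (from 585 bp) had 54 (4.92%) and 99 (9.02%) of 1098. The centre of 472 members lay in the body of another protein-coding RefSeq gene. Of these, 37 were higher (7.84%) and 42 lower (8.9%), near the 7.7% and 9.6% over all regions.

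At the region holding the Ndrg4 start, values were 111, 75 and 80 in CSE-KO, against 36, 36 and 46 in WT, a 2.20-fold difference (limma adjusted p = 0.0151). The Ube2l3 region had 152, 146 and 198 in CSE-KO, against 71, 73 and 90 in WT (2.10-fold, limma adjusted p = 0.0141). In both, every CSE-KO library lay above every WT library. The Ttll3 region had 57, 32 and 43 in CSE-KO, against 130, 111 and 104 in WT (log2 change -1.40, limma adjusted p = 0.0115). At Bcl2l11, which encodes the pro-apoptotic protein Bim, values were 266, 325 and 300 in CSE-KO, against 478, 468 and 494 in WT (log2 change -0.70, limma adjusted p = 0.0283). The 2 groups did not overlap at either gene. Without WT replicate 1 all 4 calls ended, and without WT replicate 2 those of Ndrg4, Ube2l3 and Bcl2l11 did. The adjusted p then reached 0.064 for Ndrg4, 0.0614 for Ube2l3 and 0.0519 for Ttll3. For Bcl2l11 it reached 0.101, and its call also ended without WT replicate 3 and without CSE-KO replicate 1 or 3.

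Many flanking regions moved apart from the promoter of their own gene. For 2352 members of 2032 genes, the strongest region within 1 kb of the start was also measured, and the per-library difference in log2(value + 1) between flank and promoter was tested with limma. Relative to its promoter, the flank was higher in CSE-KO at 105 members (4.46%) and lower at 224 (9.52%), with a median relative change of -0.15. The median change was -0.02 for these flanks and 0.11 for their promoters. Of the 224 lower members, the flank itself was called lower in 136, the promoter was called higher in 41, both were so called in 4, and neither was in 51. Of the 105 higher members, the flank was called higher in 67, the promoter was called lower in 19, both were so called in 2, and neither was in 21. The median flank level lay 1.05, 1.16 and 1.16 log2 units below its promoter in CSE-KO libraries, and 1.00, 0.95 and 1.09 in WT libraries. Values were not divided by region width here, and flanking regions were narrower in median than promoter regions. Levels of flank and promoter are thus not compared per base. Without 1 WT library the calls numbered 34, 37 and 30 higher and 70, 60 and 86 lower, for replicates 1, 2 and 3.

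Across members, the log2 changes of flank and promoter had a Pearson's r of 0.25 and a Spearman's rho of 0.18, over 2352 pairs that share libraries and are not independent. Of the flanks called higher in this set, 19 had a promoter called higher and 153 a promoter that was not called. Of the flanks called lower, 10 had a promoter called lower and 209 one that was not called.

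**Figure D2:**
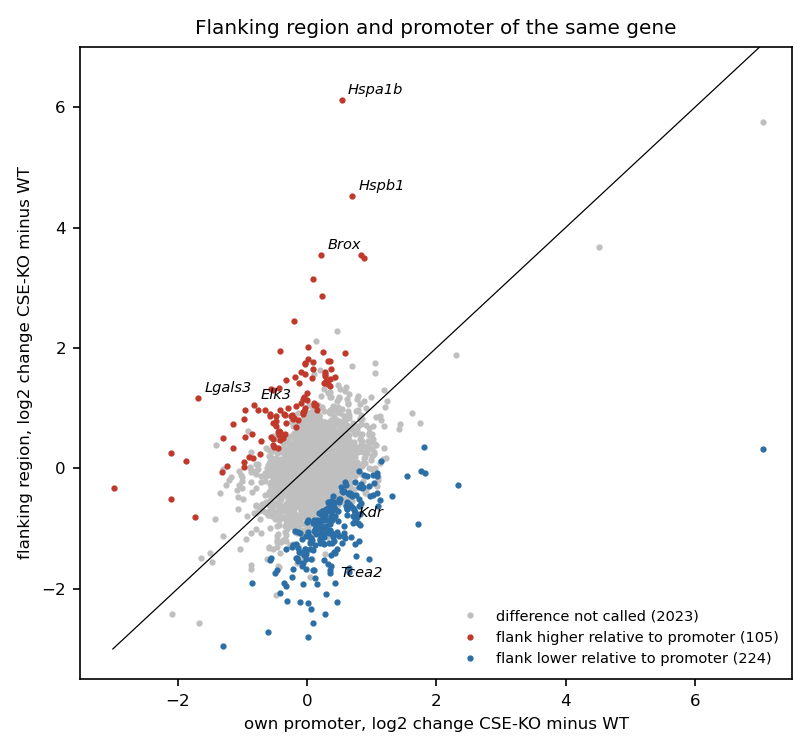
Log2 change (CSE-KO minus WT) of each flanking region (y axis) against that of the strongest region within 1 kb of the same gene's start (x axis), for 2352 pairs; the line marks equal change. The 105 red points are flanks called higher and the 224 blue points flanks called lower relative to the promoter, and Hspa1b lies farthest above the line.

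Opposite calls at flank and promoter of 1 gene were seen at 6 members. At Lgals3, which encodes galectin-3, the region 4.15 kb downstream held 67, 69 and 66 in CSE-KO, against 31, 29 and 28 in WT. Its promoter region held 16, 12 and 8 in CSE-KO, against 38, 41 and 39 in WT, and the relative change was 2.85 (SE 0.28, limma adjusted p = 5.954e-04). Flank and promoter thus moved in opposite directions with no overlap between groups in either. At Kdr, the gene of the VEGF receptor VEGFR2, the region 3.65 kb into the gene held 28, 20 and 30 in CSE-KO, against 55, 46 and 46 in WT. The Kdr promoter region held 283, 251 and 240 in CSE-KO, against 151, 152 and 169 in WT, and the relative change was -1.61 (SE 0.27, limma adjusted p = 0.00726). At the ETS factor gene Elk3 the flank was higher (log2 change 1.05) and the promoter lower (-0.82), and at Trim46, Slc25a24 and Tmem94 the flank was lower and the promoter higher. The relative call of all 6 held without any single library. The flank's own call ended without any WT library at Kdr (adjusted p 0.0798 to 0.0991) and Slc25a24 (0.0555 to 0.0711), without WT replicate 1 or 3 at Elk3 (0.0607 to 0.065), without CSE-KO replicates 1 or 3 or either of WT replicates 1 and 2 at Tmem94 (0.0835 to 0.149), and without any library but CSE-KO replicate 2 at Trim46 (0.0613 to 0.1).

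Among the strongest relative changes, the flank rose with little change at the promoter at Brox and Uhrf1bp1l. The Uhrf1bp1l region, 1.59 kb into the gene, held 69, 55 and 54 in CSE-KO, against 8, 4 and 6 in WT, while its promoter averaged 330.3 in CSE-KO and 312 in WT (relative change 3.05, limma adjusted p = 4.065e-04). In the other direction stood Tcea2, which encodes a transcription elongation factor, Tcim and Psmc4, a proteasome subunit gene. Upstream of Psmc4 the values were 5, 3 and 5 in CSE-KO, against 22, 29 and 31 in WT, and upstream of Tcim 7, 3 and 5 in CSE-KO, against 28, 31 and 26 in WT. Their promoters averaged 202 and 224 in CSE-KO and 167 and 214 in WT. Both flanks were nearly closed in CSE-KO while the promoters were not called. The other relative fall by the same rule belonged to the predicted gene Gm20481, where the flank was not called and the region taken as its promoter, chr17:34968766-34970047, held 617, 688 and 712 in CSE-KO, against 12, 1 and 4 in WT. That region overlaps Hspa1a, which RefSeq places at chr17:34969359-34972156. The nearer Gm20481 flank, chr17:34968284-34968620, held 188, 188 and 141 in CSE-KO, against 1, 3 and 3 in WT, a 54.1-fold difference (limma adjusted p = 8.657e-04), and was looked at after its values were seen.

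Among upstream members with a mean at or above the members' median, predicted genes left out, the largest rise was at Brox, whose product has the BRO1 domain of endosomal sorting proteins. The region, chr1:183299142-183299580, lay 2.09 kb upstream and inside the gene Aida. It held 867, 757 and 807 in CSE-KO, against 85, 58 and 66 in WT, an 11.6-fold difference (limma adjusted p = 8.657e-04). No CSE-KO value was near a WT value. The Kpnb1 region, 4.61 kb upstream of this nuclear import receptor gene, held 167, 202 and 185 in CSE-KO, against 51, 51 and 39 in WT (3.89-fold, limma adjusted p = 0.00283). The promoter of Kpnb1 averaged 311 in CSE-KO and 407 in WT and was not called. Upstream of Mfn2, the mitochondrial fusion gene, values were 173, 149 and 182 in CSE-KO, against 43, 64 and 61 in WT (3.00-fold), and there the promoter was called higher as well, at 149 in CSE-KO and 71.0 in WT (limma adjusted p = 0.0112). Regions upstream of the growth hormone receptor gene Ghr, the protease gene Prss8, Arap1, Lmtk3 and Amn1 rose 2.95-fold to 3.81-fold. The Arap1 region had its centre inside the gene Stard10.

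Apold1 and Hspg2 were among the 8 named upstream falls. Apold1, an early response gene of endothelium, had a region 4.93 kb upstream, chr6:134976406-134977168, with 100, 74 and 89 in CSE-KO, against 324, 326 and 340 in WT (log2 change -1.91, SE 0.17, limma adjusted p = 0.00277). Hspg2 encodes perlecan of the basement membrane, and its region 1.34 kb upstream held 57, 60 and 62 in CSE-KO, against 239, 193 and 218 in WT (log2 change -1.84, limma adjusted p = 0.00274). That region holds a RefSeq start under another gene symbol. Both the Apold1 and the Hspg2 region fell with clear gaps between the groups. Other regions of Apold1 (log2 change 0.57) and Hspg2 (-0.28 and 0.04) were not called. Among upstream members with a mean at or above the members' median, the largest fall was at Adam39 (log2 change -2.05), followed by the adhesion receptor gene Adgrg3 (-1.95), Aars2, which encodes a mitochondrial alanyl-tRNA synthetase (-1.92), Tcea2 (-1.90) and Tmem40 (-1.75). The region 4.79 kb upstream of Hes1, a repressor gene induced by Notch, held 15, 35 and 33 in CSE-KO, against 83, 92 and 91 in WT (log2 change -1.73, limma adjusted p = 0.0144). The Hes1 call ended without any 1 of the WT libraries (adjusted p 0.0528 to 0.0577).

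The 3 largest named downstream rises were at Hspa1b, Vmn1r238 and Hspb1. Hspa1b encodes an inducible HSP70 chaperone, and its region, chr17:34955547-34956764, spanned the end of the gene with its centre 3.08 kb from the start. It held 743, 804 and 812 in CSE-KO, against 6, 18 and 10 in WT (786 ± 37.7 in CSE-KO and 11.3 ± 6.11 in WT, SD, n = 3 each), a 69.3-fold difference (log2 change 6.11, SE 0.34, limma adjusted p = 8.657e-04). The promoter region of Hspa1b held 273, 313 and 251 in CSE-KO, against 198, 209 and 169 in WT, and was not called (log2 change 0.54, limma adjusted p = 0.077). The site past the gene end was thus almost without signal in WT, unlike the promoter. Hspa1b has a near-identical copy, Hspa1a, so reads could have been split between them, and both values are uncertain.

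At Hspb1, which encodes the small heat shock protein HSP27, the region past the gene end, chr5:135890011-135890621, lay 2.40 kb from the start. It held 243, 195 and 197 in CSE-KO, against 10, 9 and 6 in WT, a 23.1-fold difference (log2 change 4.53, SE 0.22, limma adjusted p = 8.326e-04). The Hspb1 promoter region held 211, 213 and 244 in CSE-KO, against 145, 131 and 134 in WT (log2 change 0.70, limma adjusted p = 0.0269). In CSE-KO the value past the end came close to that of the promoter, and in WT it stayed far below, with no correction for width. The flank changed more than the promoter in the test of the difference (relative change 3.83, limma adjusted p = 7.694e-05).

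Ftl1 and Cp were also among the named downstream rises. The region past the end of Ftl1, the ferritin light chain gene, held 425, 398 and 320 in CSE-KO, against 98, 65 and 51 in WT (5.44-fold, limma adjusted p = 0.00392), while its promoter averaged 144 in CSE-KO and 166 in WT and was not called. Ferritin genes have near-identical copies, so this value is uncertain. A region 1.31 kb into Cp, the gene of the ferroxidase ceruloplasmin, held 211, 253 and 148 in CSE-KO, against 59, 43 and 29 in WT (4.66-fold, limma adjusted p = 0.00686). Neither pair of groups overlapped. The other named rises were Vmn1r238 (25.3-fold), Cldn34d (8.65-fold), Crct1 (4.19-fold) and the cofilin gene Cfl2 (3.76-fold). At Vmn1r238 the WT values were only 2, 4 and 6. Whether reads at Vmn1r238 and Cldn34d map to a single place was not tested, so these values are uncertain too.

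The named downstream falls all lay inside the genes, as did 2517 of the 2692 downstream members tested. In Stc1, which encodes the glycoprotein hormone stanniocalcin-1, the region 5.17 kb from the start held 29, 21 and 16 in CSE-KO, against 167, 135 and 138 in WT (log2 change -2.71, SE 0.24, limma adjusted p = 0.00274). Maff encodes a small Maf transcription factor, and its region 4.95 kb into the gene held 69, 75 and 74 in CSE-KO, against 294, 296 and 311 in WT (log2 change -2.03, SE 0.15, limma adjusted p = 0.00167). Libraries of 1 group lay close together at Maff. Pla2g2c had 18, 6 and 26 in CSE-KO, against 103, 116 and 133 in WT (log2 change -2.94). The centre of this region also lay inside the gene Ubxn10. The Pla2g2c promoter region was called lower as well, at 153 in CSE-KO and 374 in WT. Laptm4a, a lysosomal membrane protein gene, fell by 2.20 on the log2 scale with a promoter that was not called. The log2 change was -2.10 at Ucp2, a mitochondrial carrier gene, -1.92 at the tropomyosin gene Tpm4, -1.84 at Tm4sf4 and -1.74 at the diacylglycerol kinase gene Dgkz. At Tm4sf4 the call was lost when WT replicate 1 or 3 was left out (adjusted p 0.0562 and 0.0559).

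**Figure D3:**
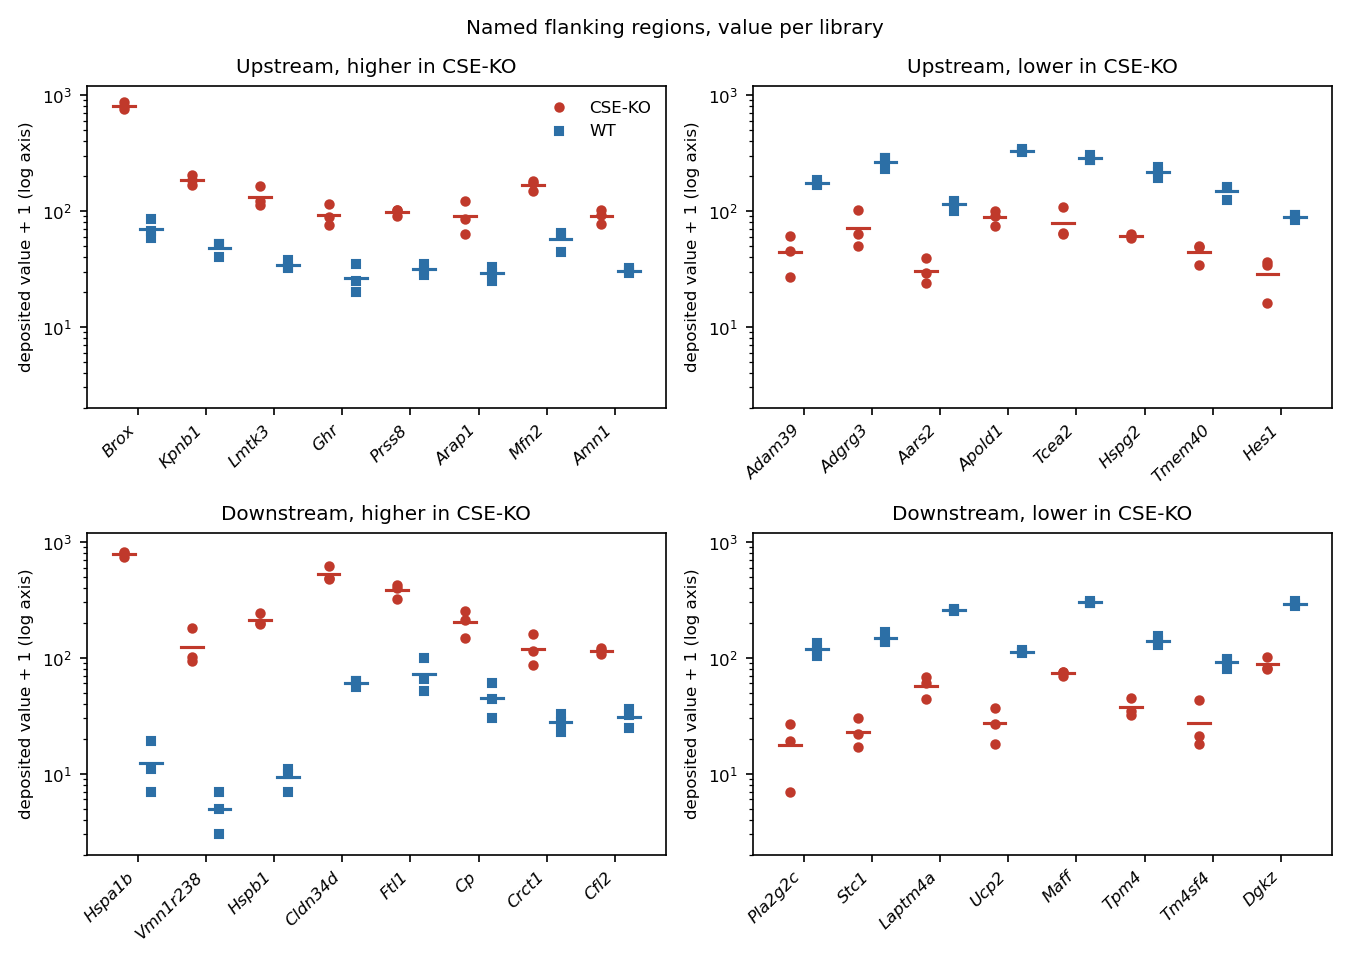
Deposited value plus 1 (y axis, log scale) of the named upstream and downstream regions in each CSE-KO library (red circles) and WT library (blue squares); short lines mark the group means plus 1. CSE-KO and WT values do not overlap at any of these regions, a condition of the choice, and Hspa1b, Vmn1r238 and Hspb1 show the widest gaps.

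The 175 regions with their centre past the gene end included 20 that were higher in CSE-KO (11.4%, against 7.7% over all regions) and 15 that were lower (8.57%, against 9.6%). Of the 175, 24 belonged to genes of the lists described below. Among these 24 were 8 of the 15 lower regions, from 7 genes, and 5 of the 20 higher regions. The lists were chosen with earlier results of these data known, so these counts cannot show a concentration. At Id1, a BMP target that blocks bHLH factors, the region held 199, 165 and 207 in CSE-KO, against 624, 581 and 559 in WT (log2 change -1.63, SE 0.17, limma adjusted p = 0.0035). The Id1 promoter averaged 194 in CSE-KO and 204 in WT, and the relative change was -1.56 (limma adjusted p = 0.00717). At Id1 the value past the end was thus above that of the promoter in every WT library and near it in CSE-KO, with no correction for width.

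Id3, a second BMP target, had 399, 302 and 363 past its end in CSE-KO, against 738, 761 and 709 in WT (log2 change -1.06, limma adjusted p = 0.01). Snai1, a transcriptional repressor gene, had 240, 287 and 299 in CSE-KO, against 594, 539 and 575 in WT (log2 change -1.05, limma adjusted p = 0.00938). The regions past Ccn1, Ccn2, the small GTPase gene Rhob and Nfkbia, the gene of an NF-kB inhibitor, had log2 changes of -1.08, -1.33, -1.19 and -1.27, and no call of these or of Id1, Id3 and Snai1 ended when a library was left out. A second region past Nfkbia, chr12:55488792-55489210, had a log2 change of -0.78 (limma adjusted p = 0.0383), and its call ended without any WT library and without CSE-KO replicate 2 or 3 (adjusted p 0.0718 to 0.128). The promoters of these 7 genes were not called. The fall relative to the promoter was called at Id3, Snai1, Ccn1, Rhob and Nfkbia (adjusted p 0.0153 to 0.0452) and not at Ccn2 (0.0544). Without any 1 of the WT libraries the relative calls of these 5 ended (adjusted p 0.0542 to 0.14). They ended also without CSE-KO replicate 2 at Id3 and without CSE-KO replicate 1 or 3 at Snai1.

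Of the other regions past a gene end, 3 belonged to actin cytoskeleton genes and were looked at after their values were seen. The region past Actb, the beta-actin gene, held 77, 77 and 80 in CSE-KO, against 259, 235 and 221 in WT (log2 change -1.60, limma adjusted p = 0.00307). Actg1 and Tmsb4x, which encode gamma-actin and an actin-sequestering peptide, had log2 changes of -0.56 and -1.10. The Actb call held without each library, while that of Actg1 ended in all 6 such fits and that of Tmsb4x in 4.

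Gene lists were read next against the background of 7.7% higher and 9.6% lower over all regions. The heat shock and chaperone list had 12 members, of which 4 were higher and none lower, with a median log2 change of 0.60 (8 higher and 1 lower at an unadjusted limma p under 0.05). Among these, beside Hspa1b and Hspb1, was Hspb2, a small heat shock protein gene, whose upstream region held 74, 58 and 100 in CSE-KO, against 25, 25 and 21 in WT (3.11-fold, limma adjusted p = 0.007). The groups did not overlap there. In the list of NRF2, glutathione, iron and redox genes, 4 members were higher and 2 lower of 21, and the rises were at Ftl1, at 2 regions of Cp and at the metallothionein gene Mt1 (2.22-fold). The Mt1 region holds a RefSeq start under another gene symbol. No call was made at the 3 Fth1 regions (log2 changes -0.05, 0.52 and -0.05), the upstream Cp and Ftl1 regions (-0.28 and 0.58), Mt2 (-0.04) or Hmox1 (0.02). The falls were at Gclc and Gpx3, with log2 changes of -0.73 and -0.65. The calls of Gclc and of the second Cp region ended in each fit with 1 library left out, and that of Gpx3 in all of these but the one without CSE-KO replicate 1 (adjusted p 0.0535 to 0.13).

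Of 41 members near endothelial identity genes, 3 were higher and 8 lower, with a median log2 change of -0.08. Egfl7, which encodes an endothelial secreted factor, had 70, 100 and 89 in CSE-KO at 1.66 kb upstream, against 243, 318 and 269 in WT (log2 change -1.68, limma adjusted p = 0.00481). Tal1, a haemato-endothelial transcription factor gene, had 85, 124 and 115 in CSE-KO at 3.69 kb upstream, against 255, 258 and 241 in WT (log2 change -1.23, limma adjusted p = 0.00914). The promoter of Egfl7 was called lower too (log2 change -0.86), and that of Tal1 was not called (-0.46). Lyve1, a lymphatic hyaluronan receptor gene, carried a lower region 5.08 kb upstream (log2 change -1.48) and a higher one 2.93 kb downstream (0.72). The centre of the upstream Lyve1 region lay inside the gene Mrvi1. The other rises were at Nos3 (0.61) and Elk3 (1.05), and the other falls at a region each of Sox18, Kdr, Plvap, Lyl1 and Flt4. Members not called included Cdh5 (0.15), Sox17 (0.01 and -0.15), Gata2 (-0.18, -0.09 and -0.40), Robo4 (0.05 and -0.35), Esam (0.43) and the downstream Tal1 region (0.25). Without WT replicates 1, 2 and 3 in turn the list had 3, 3 and 4 lower and 0, 1 and 0 higher members, and the calls of Egfl7, Tal1 and the upstream Lyve1 region held each time. Without 1 CSE-KO library it had 7 to 9 lower and 1 higher. The second Lyve1 call ended in each fit with 1 library left out (adjusted p 0.0737 to 0.126).

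Notch and VEGF genes had 3 higher and 6 lower members of 50. The rises were at Efna1 and at 2 regions of Sema6a. An upstream region of the receptor gene Notch4 held 26, 32 and 43 in CSE-KO, against 102, 95 and 89 in WT (log2 change -1.50, limma adjusted p = 0.00737). Upstream of Hey2, a Notch target, values were 13, 14 and 20 in CSE-KO, against 43, 44 and 37 in WT (log2 change -1.36, limma adjusted p = 0.00841). Neither Notch4 nor Hey2 lost its call when a library was left out. With Hes1, whose call ended without any 1 of the WT libraries (adjusted p 0.0528 to 0.0577), the falls also included Apold1, Itgav and Dusp6. Without 1 WT library the list had 3 lower members in each case and 1, 1 and 0 higher, without replicates 1, 2 and 3. No call was made at Nrarp (log2 changes -0.30 and 0.15), Notch1 (0.26 and -0.93), Dll4 (-0.82), Jag1 (-0.23), Jag2 (0.33), Hey1 (-0.20), Notch3 (0.40) or the downstream Hes1 region (-0.30). The Notch4 promoter region averaged 49.7 in CSE-KO and 26.7 in WT and was not called, and the relative change of the flank was -2.46 (limma adjusted p = 0.00566).

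In the TGF-beta, BMP and SMAD list, 3 were higher and 5 lower of 32, the falls being at Id1, Snai1, 2 regions of Id3 and Smad5. Rises in this list were at Inhba, Bmper and Gdf15 (log2 changes 2.86, 1.06 and 0.70), and each of these calls ended without some library. Without any 1 of the WT libraries 1 was higher and 3 were lower. The KLF, MEF2 and flow list had 3 higher and 5 lower of 38, with a median of -0.17, and without any 1 of the WT libraries 0 higher and 3 lower. Its falls were at Ccn2, 3 regions of Ccn1 and Sgk1, a kinase gene, where values were 23, 23 and 25 in CSE-KO, against 79, 65 and 65 in WT (log2 change -1.51, limma adjusted p = 0.00392). The rises of that list were at Nos3, Ece1 and Klf9 (log2 changes 0.61, 0.82 and 0.84). Of 30 members near AP-1 and immediate early genes none was higher and 3 were lower, namely Maff, Rhob and Fosl2, with a median of -0.21 (1 higher and 7 lower at an unadjusted limma p under 0.05). The calls of Smad5, of the upstream Id3 region and of the 2 upstream Ccn1 regions ended without any WT library (adjusted p up to 0.0944, 0.0698 and 0.119), and that of 1 of the Ccn1 regions also without CSE-KO replicate 2 or 3. The Fosl2 call (log2 change -0.67) ended without any library but CSE-KO replicate 3 (adjusted p 0.055 to 0.0999).

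Hypoxia and glycolysis genes had 3 higher and none lower of 26 (8 and 4 at an unadjusted limma p under 0.05). Among them Pkm, the pyruvate kinase gene, had 77, 63 and 56 in CSE-KO at 2.76 kb upstream, against 28, 19 and 19 in WT (2.91-fold, limma adjusted p = 0.00737). The glucose transporter gene Slc2a1 and Ldha rose 1.71-fold and 1.78-fold, and both calls ended without any WT library (adjusted p up to 0.0896 and 0.128). The Ldha call ended also without CSE-KO replicate 1 or 2. ATF4 and amino acid genes had 2 higher, Slc1a5 and Vldlr, and none lower of 18 (4 and 1 unadjusted). Their calls ended without WT replicate 1 or 3 and, at Vldlr, replicate 2 (adjusted p up to 0.13 and 0.0911), and that of Slc1a5 also without CSE-KO replicate 1 or 3. Inflammation genes had 1 higher, Cxcl2, and 3 lower of 22. Matrix and adhesion genes had 1 higher and 4 lower of 32, the falls including Col4a2 (log2 change -1.58) beside Hspg2 and Stc1. The Col4a2 region had its centre inside the gene Col4a1. Without any 1 of the WT libraries the inflammation list had 0 higher and 1 lower and the matrix list 0 higher and 3 lower, and without CSE-KO replicate 2 or 3 the inflammation list also had 1 lower. The Cxcl2 call ended without any WT library (adjusted p 0.0851 to 0.102). None of the 9 members near histone acetylation, acetyl-CoA and TCA genes was called by limma, and at an unadjusted p under 0.05 there was 1 higher and 1 lower.

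**Figure D4:**
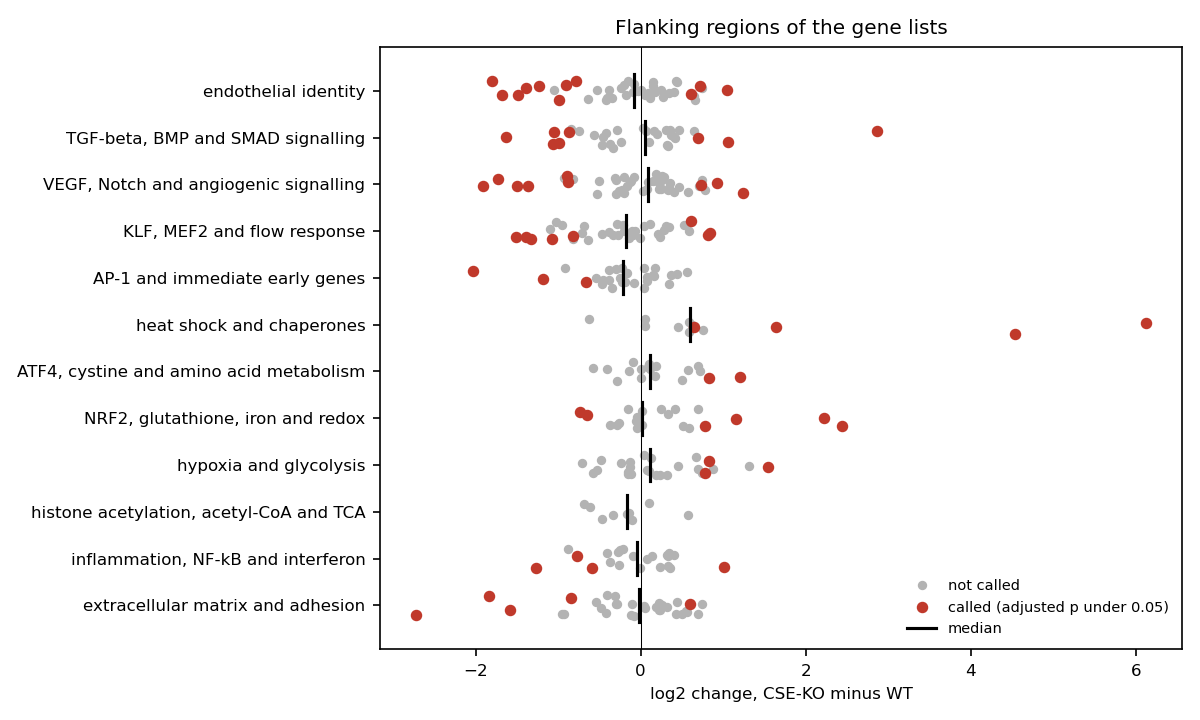
Log2 change (CSE-KO minus WT, x axis) of every flanking region of the 12 gene lists (rows); red points passed the adjusted p of 0.05 and black bars mark medians. Heat shock genes have the highest median, 0.60, and AP-1 genes the lowest, -0.21.

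Of the members near marker genes of other cells, none of 10 mural and none of 4 leukocyte ones was called by limma, and at an unadjusted p under 0.05 there were 2 higher mural and 1 lower leukocyte regions. Near epithelial and mesothelial markers, Krt8 and Msln were higher and Pdpn lower of 9. The Krt8 region held 41, 40 and 30 in CSE-KO, against 19, 22 and 20 in WT, and the Msln region 25, 47 and 39 in CSE-KO, against 19, 18 and 17 in WT. All 3 calls ended without any WT library and without CSE-KO replicate 2 (adjusted p up to 0.0967 for Krt8, 0.122 for Msln and 0.13 for Pdpn), and that of Krt8 also without CSE-KO replicate 1 and that of Msln without replicate 3.

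Several regions of 1 gene were present for 577 genes, and 20 of these had at least 2 called members. In 15 genes the called members had the same direction, 6 higher and 9 lower, and in 5 they had both. All 3 regions of Ccn1 and both regions of Id3, Runx1 and Adgrg3 were lower. Both regions of Arap1 and Ndrg4 were higher. Regions of 1 gene share their neighbourhood and are not independent.

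Flanking regions held 8.94% ± 0.0642 of all values in CSE-KO libraries and 7.58% ± 0.039 in WT libraries (SD, n = 3 each). This difference of 1.36 percentage points came with 2 members among the 6 regions of the table that held a value over 10000. The Gm10719 region held 45173, 47692 and 50390 in CSE-KO, against 6004, 4453 and 3103 in WT, and spans 38188 bp at chr9:3000031-3038219. At Gm21738, chr14:19415724-19419702, values were 53556, 53907 and 56578 in CSE-KO, against 7368, 5194 and 3886 in WT. Without the 6 regions the shares were 7.49% ± 0.0415 in CSE-KO and 7.45% ± 0.0201 in WT, a difference of 0.0414 points. Under the same setting promoters held 42.1% in CSE-KO and 39.2% in WT, and regions with no gene 41.8% in CSE-KO and 44.4% in WT.

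**Figure D5:**
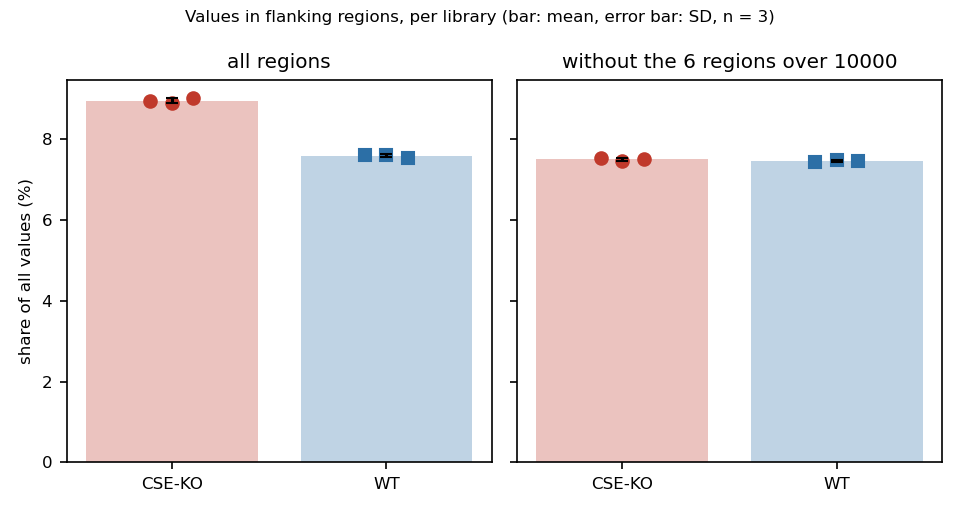
Share of all values (y axis, %) lying in flanking regions in CSE-KO (red, left) and WT (blue, right) libraries, for all regions and without the 6 regions over 10000; bars are means, points libraries and error bars SD. With all regions the CSE-KO libraries lie between 8.876% and 9.004% and the WT libraries between 7.536% and 7.61%, and without the 6 regions the groups overlap.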

How the data were processed

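ATAC-seq libraries were labelled CSE-KO (3) or WT (3) in their titles. The build mm10 and the tools DESeq2 1.26.0, Picard 3.1.1, STAR 2.7.3a and Trimmomatic 0.39 are named in the submitters' processing notes. What each tool did, which peak caller was used and whether Tn5 ends were shifted is not given in the sources used here. In the deposited table the unit was taken as a score. Its values are whole numbers, but near-equal totals and skipped whole numbers are marks of counts that were scaled and rounded, so no count model was run. Read depth is not given.

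Tests were run in R 4.3.3 with limma 3.58.1 after a log2(value + 1) transform, trend and robust off, for 58129 regions with a mean of at least 5, CSE-KO minus WT, Benjamini-Hochberg over all regions. Fold changes are on this scale and understate changes at low values. The script was tested on simulated data. Members and lists were chosen with earlier results of these data known. Named regions were the 8 largest called changes per side and direction with groups not overlapping and a mean at or above the members' median, predicted genes left out, the 3 smallest p per list, and the 4 smallest p per direction relative to the promoter. Sequences came from RefSeq tables on GRCm38.p6. Of 4392 members with a symbol, 4198 matched. The values of 1 called list member are not reported here. Windows of the other leading named regions are not printed, since they lie outside the regions. Alternatives covered the pseudocount, the filter, scaling, limma's settings, the replicate block, distance and each library left out.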

Additional observations from a re-analysis of the deposited data

How the results depend on the processing

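The counts of flanking regions higher and lower in CSE-KO, 328 and 370, became 532 and 571 with limma's trend and robust options. With each library left out they ranged from 113 to 256 higher and from 122 to 355 lower, lowest without a WT library. Beyond 2 kb, 198 were higher and 278 lower. Without members holding a RefSeq start, a choice made after seeing the data, 298 were higher and 364 lower. Other pseudocounts, filters and scalings gave counts within 1.5 times. Relative to the promoter, the counts of 105 higher and 224 lower ranged from 30 to 98 and from 60 to 247 with each library left out.

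Same-numbered libraries did not deviate together (correlations of -0.00593, -0.0105 and 0.0105), so the numbers give no pairing. With a replicate block, 178 were higher and 223 lower, and relative to the promoter 83 and 200. Of the 64 named members, 59 were called, 7 calls ended with the block, 9 without some WT library, 4 without some CSE-KO library, and no direction reversed.

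The difference in the share of values, 1.36 percentage points, was 0.0414 without the regions over 10000. For flanking regions beyond 2 kb it was -0.294, and -0.0777 when the regions over 10000 were left out as well. With each library left out, the difference of 1.36 points ranged from 1.33 to 1.39.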
